A study of Mus musculus with 3 samples.

Results

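Fibroblasts from visceral fat were compared with and without oncostatin M (Osm), gene by gene, to see which secreted, receptor, signalling and metabolic genes differed and by how much. The genes described are the 8968 protein-coding genes with a level of at least 10 CPM (read counts scaled to library size) in the vehicle or the Osm library, out of 21970 protein-coding genes and 56748 genes of any kind in the table. Wild-type mice fed a high-fat diet gave the visceral adipose tissue, whose stromal vascular cells were sorted with magnetic beads as negative for CD45, CD31 and Ter119, the surface markers of leukocytes, endothelial cells and erythroid cells. One library was made from cells given recombinant mouse Osm at 3 ng/mL over 24 h and 1 from cells labelled as control, for which no time is stated. A further library, from cells given recombinant human TGF-beta1 at 3 ng/mL, is used here for side-by-side values only. The labels give no clone, number of mice or pooling, and a sort by exclusion keeps any cell that lacks the 3 markers.

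Osm belongs to the cytokines related to interleukin 6. It binds the receptor chain Osmr, which pairs with the shared chain gp130, encoded by Il6st, and Jak kinases attached to the pair then phosphorylate Stat3 and activate MAP kinases. Stat3 switches on acute-phase genes and Socs3, whose product blocks the receptor complex again, and in stromal cells the pathway is known for acting on protease inhibitors, chemokines and matrix genes.

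The vehicle and Osm libraries held 18336068 and 17319872 counted reads, and the 8968 genes took 97.1% of them in each, so that 10 CPM stood for 184 and 174 reads. There was 1 library per condition. Each fold below is therefore a difference between libraries without a replicate check, and the range in brackets is its exact 95% counting interval, which covers counting error only. All 8 fibroblast markers on the list used (Pdgfra, Col1a1, Col1a2, Dcn, Lum, Thy1, Col3a1 and Fbln1) were above 10 CPM in both libraries, with summed levels of 18417 CPM in the vehicle library and 18670 CPM in the Osm library. The 6 erythroid markers were at 0, as were the leukocyte markers Adgre1, Cd3e and Itgam, where a count of 0 allows up to 0.163 CPM in the vehicle and 0.173 CPM in the Osm library. The 9 leukocyte markers summed to 18.8 and 15.9 CPM, mostly Cd68 and Csf1r, with Ptprc, which encodes CD45, at 0 and 0.115 CPM. The 7 endothelial markers summed to 56.6 and 45.6 CPM, of which the receptor gene Tek made up 48.5 and 38.9 CPM and Pecam1, which encodes CD31, 0.109 and 0.173 CPM. Mature adipocyte markers summed to 41.6 and 41.7 CPM, nearly all from Pnpla2, with Plin1, Cidec, Lep and Cfd at 0. Mesothelial markers summed to 43.2 and 41.9 CPM, of which Wt1 made up 37.1 and 36.1 CPM. Mural markers summed to 1433 and 1410 CPM, almost all from Pdgfrb. Schwann cell markers summed to 12.4 and 11.2 CPM, of which Mbp made up 11.2 and 10.4 CPM. The part of these small marker differences in the results was not tested.

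Most genes lay close to the vehicle level and the differences were graded. The ratio of Osm to vehicle was within 1.1-fold for 73.9% of the 8968 genes, within 1.2-fold for 92.9% and within 1.5-fold for 99.5%. The log2 ratio had a median of 0.00, with its 5th and 95th percentiles at -0.24 and 0.23. A gene was called where its fold reached a stated size and its counting interval excluded a ratio of 1. At least 1.2-fold, 292 genes were higher with Osm (3.26%) and 316 lower (3.52%), which is 6.78% either way. At least 1.5-fold, 18 were higher (0.201%) and 27 lower (0.301%), or 0.502% either way. At least 2-fold, 3 were higher (0.0335%) and 3 lower (0.0335%), or 0.0669% either way. Thus 274 of the 292 higher genes and 289 of the 316 lower genes lay between 1.2-fold and 1.5-fold.

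**Figure D1:**
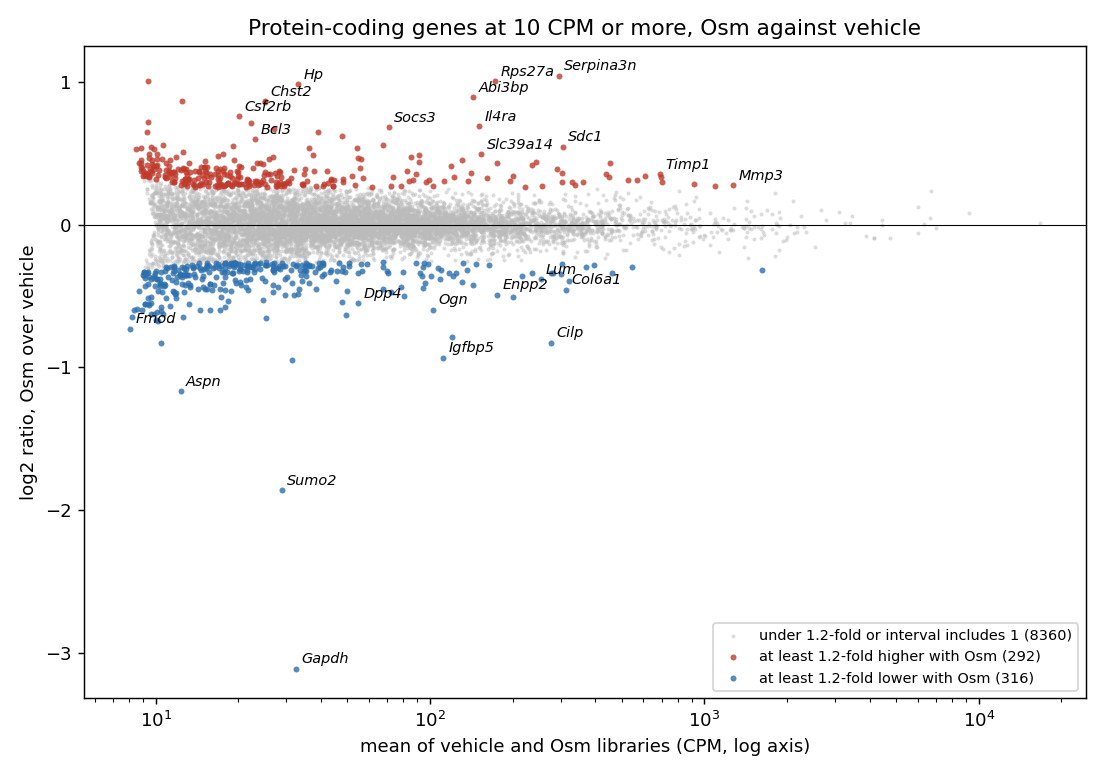
Each point is 1 of the 8968 protein-coding genes, with the mean level of the vehicle and Osm libraries in CPM on a log axis and the log2 ratio of Osm over vehicle on the other axis; red points were at least 1.2-fold higher and blue points at least 1.2-fold lower with a counting interval that excludes 1. The cloud is centred on 0 and narrows with level, and few points lie beyond a log2 ratio of 1 on either side.

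Level set how small a difference could be told from counting error. The smallest ratio whose interval excludes 1 was 1.23 at 10 CPM, 1.1 at 50 CPM and 1.02 at 1000 CPM. Of the genes with a mean under 20 CPM, 16.0% were called at 1.2-fold, against 2.30% between 50 and 100 CPM, 3.31% between 100 and 500 CPM and 4.37% at 500 CPM or more. Above 50 CPM the log2 ratios had an SD of 0.112 over 4092 genes, where counting alone gives 0.0483. At the threshold itself, 5730480H06Rik, Macir and Slc25a15 came in at 10.03 CPM with Osm (8.10, 7.72 and 7.93 CPM with vehicle), and Def6, Nfkbie and Snx16 stayed out, at 9.999 CPM in the vehicle library and 7.49, 9.05 and 7.84 CPM in the Osm library. Only 1 library reached 10 CPM for 281 genes, which had to differ to be included, and 119 of them were called at 1.2-fold. Among those described below, Csmd1 and Spred3 reached it only with Osm and so had to be higher. Aspn, Fmod, Ecm2, Tgfb2, Slc40a1, Nr4a1, Lipe, Id4 and Gapdh reached it only with vehicle and so had to be lower.

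Of the 4 roles described, secreted genes had the highest share of calls and metabolic genes the lowest. Of 220 secreted genes 20 were higher and 22 lower (19.1% called), of 154 receptor genes 12 and 13 (16.2%), of 229 signalling genes 18 and 13 (13.5%) and of 379 metabolic genes 12 and 16 (7.39%). A gene whose lists fall in 2 roles was counted in both. The response list of gp130 and Stat3, counted as signalling, held 14 of the 18 higher signalling genes. Among these, Serpina3n, Hp, Fgl2, Timp1 and Hgf were also counted as secreted, Il4ra as a receptor, and Mt1 and Mt2 as metabolic. The signalling share is therefore not one of signalling genes alone. Klf2, a transcription factor, counted as secreted through the plasminogen list. Among the 7890 genes in none of the 51 lists, 237 were higher and 248 lower (6.15%). The secreted genes had a median level of 185 CPM with vehicle, above the 41.1 CPM of unlisted genes. The part of level in these shares was not tested. Within each role the differences ran in both directions. The lists were chosen with earlier results of these data known, so these shares are no separate evidence. Counts of called genes in the lists below stand beside 3.26% higher and 3.52% lower over all genes.

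**Figure D2:**
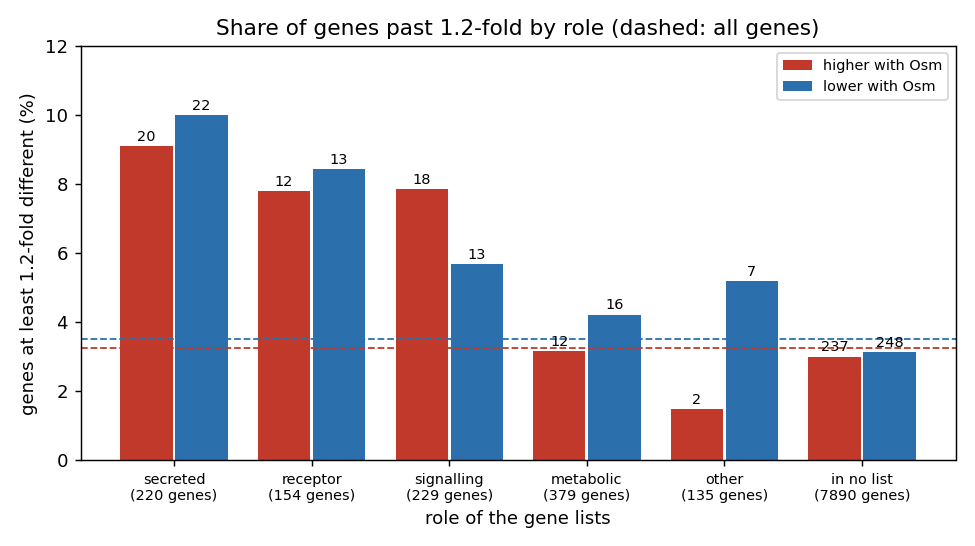
Bars show the percentage of genes of each role that were at least 1.2-fold higher or lower with Osm, with the number of genes under each name and the percentages over all 8968 genes as dashed lines. Secreted genes have the tallest pair of bars and metabolic genes lie near the dashed lines. The lists behind the roles were chosen with earlier results of these data known.

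The acute-phase proteins, plasma proteins induced in inflammation, included the secreted gene with the highest ratio. Of 22 on the list 7 reached 10 CPM, with a median log2 ratio of 0.15, and 3 were higher and 1 lower at 1.2-fold, beside the 3.26% and 3.52% of all genes. Serpina3n, a serine protease inhibitor (ENSMUSG00000021091, chromosome 12, 104372988 to 104380588 of mm39, the build of all gene positions here), had 193 CPM in the vehicle and 397 CPM in the Osm library and was 2.06-fold higher (1.98 to 2.15). Hp, the haemoglobin-binding plasma protein haptoglobin (ENSMUSG00000031722, chromosome 8, 110301760 to 110305804), had 22.2 and 43.8 CPM and was 1.97-fold higher (1.75 to 2.23). Fgl2, a fibrinogen-like prothrombinase, had 45.7 and 63.2 CPM (1.38-fold, 1.26 to 1.51). These 3 were the higher ones. Itih5, which encodes a hyaluronan-binding heavy chain, was 1.46-fold lower (1.32 to 1.61), from 56.7 to 39 CPM. The list's median was 0.31 when genes from 5 CPM were included. In bulk RNA, more cells making a transcript and more transcript per cell cannot be told apart.

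Several secreted genes outside the acute-phase list reached similar folds. Abi3bp, an extracellular matrix protein, had 101 and 187 CPM and was 1.85-fold higher (1.75 to 1.96), and Apln, the ligand of the apelin receptor, had 20.9 and 33.2 CPM (1.59-fold, 1.40 to 1.81). Angptl4, an inhibitor of lipoprotein lipase, had 30.4 and 47.6 CPM (1.56-fold, 1.40 to 1.74). Fetub, a fetuin-family protease inhibitor, had 44.3 and 64.3 CPM (1.45-fold, 1.32 to 1.59). Of the 26 growth factor genes 5 were higher and 2 lower, with a median of 0.02. Among the higher genes were Angptl4, Angptl2, a secreted angiopoietin-like protein with 399 and 501 CPM (1.26-fold, 1.22 to 1.3), and Hgf, the ligand of the Met receptor, with 50.6 and 63.4 CPM (1.25-fold, 1.15 to 1.37). Vegfd, a lymphatic growth factor, was 1.26-fold lower (1.21 to 1.32), from 262 to 207 CPM, and Pdgfd 1.21-fold lower (1.06 to 1.39).

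The chemokine genes differed member by member. Of 14 genes 3 were higher and none of the 14 was lower at 1.2-fold, beside 3.26% and 3.52% of all genes. Their median was 0.11. Cxcl5, a neutrophil attractant, had 29.7 and 43.0 CPM (1.45-fold, 1.3 to 1.62), Cxcl14 177 and 225 CPM (1.27-fold, 1.21 to 1.33) and Spp1, which encodes osteopontin, 304 and 369 CPM (1.21-fold, 1.17 to 1.26). The monocyte attractant Ccl2 had 54.4 and 52.6 CPM, and its interval included 1 (1.03-fold lower, 0.94 to 1.13). Csf1, the macrophage growth factor, had 2197 and 2168 CPM, and the alarmin Il33 13.1 and 15.3 CPM (1.17-fold higher, 0.98 to 1.39). Of 12 complement genes none was higher at 1.2-fold and 1 was lower, the inhibitor Cd55 (1.36-fold, 1.27 to 1.46), with a median of -0.06. The central component C3 had 868 and 901 CPM.

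Small leucine-rich proteoglycans, which bind collagen fibrils and set their spacing, were the list with the lowest median. Of 12 on the list 9 reached 10 CPM, with a median log2 ratio of -0.38. At 1.2-fold 5 were lower and none of the 9 higher, beside 3.52% and 3.26% of all genes. Aspn (asporin) had 17.1 and 7.61 CPM and was 2.25-fold lower (1.83 to 2.78), and Fmod (fibromodulin) had 10.1 and 6.05 CPM (1.66-fold lower, 1.3 to 2.13). Ecm2 had 12.9 and 8.36 CPM (1.54-fold lower, 1.25 to 1.91), Ogn (osteoglycin) 124 and 81.9 CPM (1.51-fold lower, 1.41 to 1.62) and Lum (lumican) 286 and 220 CPM (1.3-fold lower, 1.25 to 1.36). The shift was not shared by all of the family. Bgn (biglycan) had 6318 and 6331 CPM, a ratio within counting error (0.99 to 1.01), and Dcn (decorin) 1984 and 1757 CPM, 1.13-fold lower (1.11 to 1.15). Aspn, Fmod and Ecm2 reached 10 CPM only in the vehicle library and so had to be lower with Osm. The list's median was -0.28 when the mean of both libraries had to reach 10 CPM and -0.17 with a limit of 20 CPM.

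Ecm2, Aspn and Ogn are neighbours. On chromosome 13 they lie in a row on the plus strand, Ecm2 at 49658286 to 49686265, Aspn at 49697919 to 49721041 and Ogn at 49761522 to 49777977, with Omd (osteomodulin) between Aspn and Ogn. Omd was low, with 14 counts with vehicle and 5 with Osm (0.761 and 0.288 CPM, an interval that includes 1). All 4 lie inside Cenpp, a centromere protein gene of the opposite strand at 49617499 to 49806261, to which few reads were assigned (0.815 and 0.576 CPM).

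Collagen genes differed chain by chain. Of 18 collagen genes at 10 CPM, 4 were lower and none of the 18 higher at 1.2-fold, beside 3.52% and 3.26% of all genes. A ratio above 1 was seen for 4, and the median was -0.09. The summed level of the list was 23809 CPM with vehicle and 23880.4 CPM with Osm. Col6a1 had 363 and 265 CPM (1.37-fold lower, 1.32 to 1.42) and Col6a2 313 and 247 CPM (1.27-fold lower, 1.22 to 1.32). Col6a3, the third chain of the microfibrillar collagen VI, had 905 and 821 CPM (1.1-fold lower, 1.08 to 1.13), below the 1.2-fold limit. Col12a1, a collagen bound to fibril surfaces, had 598 and 488 CPM (1.23-fold lower, 1.19 to 1.26), and Col4a5, a basement membrane chain, 78.6 and 62.2 CPM (1.26-fold lower, 1.17 to 1.37). The fibrillar chains did not reach 1.2-fold in either direction. Col1a1 and Col1a2 were each 1.07-fold lower, and Col3a1 was 1.18-fold higher (1.17 to 1.19).

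Matrix genes of other kinds differed one by one. Cilp, a cartilage intermediate layer protein that binds TGF-beta (chromosome 9, 65172462 to 65187887), had 353 and 199 CPM and was 1.77-fold lower (1.70 to 1.85). Hmcn2, a large hemicentin of the matrix, had 41.3 and 21.4 CPM (1.93-fold lower, 1.70 to 2.19), and Spon2 30.9 and 19.6 CPM (1.57-fold lower, 1.37 to 1.81). Of 36 elastic fibre and matricellular genes 2 were higher and 3 lower, with a median of -0.02. Fn1, which encodes fibronectin, had 16669 and 16765 CPM. Gsn, the actin-severing protein gelsolin that is also secreted, was named after its values were seen: it had 1808 and 1448 CPM (1.25-fold lower, 1.23 to 1.27).

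Protease inhibitors went opposite ways. Timp1, an inhibitor of metalloproteinases (chromosome X, 20736405 to 20740974), had 604 and 772 CPM and was 1.28-fold higher (1.24 to 1.31), while the matrix-bound inhibitor Timp3 had 236 and 166 CPM and was 1.42-fold lower (1.35 to 1.49). Mmp3, the protease stromelysin, had 1149 and 1390 CPM (1.21-fold higher, 1.19 to 1.23). These 3 were the only called members of 24. Bmp1, the procollagen C-proteinase, had 506 and 628 CPM (1.24-fold higher, 1.21 to 1.28), and Loxl3, a collagen-crosslinking oxidase, 123 and 152 CPM (1.23-fold, 1.17 to 1.31), though Htra2 overlaps it at 58.1 CPM with vehicle. The anticoagulant genes Pros1, which encodes protein S, and Thbd, which encodes thrombomodulin, were 1.23-fold higher each, from 627 to 770 CPM and from 295 to 362 CPM.

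A few genes of growth factors and related signals were lower, while most of the insulin-like growth factor (IGF) list was not called. Igfbp5, which binds insulin-like growth factors (chromosome 1, 72897091 to 72914043), had 147 and 77.0 CPM and was 1.91-fold lower (1.79 to 2.04). It and Stc2, an inhibitor of a protease that cleaves such binding proteins, were the 2 called of 10 IGF axis genes, while Igf1 itself had 211 and 198 CPM. Tgfb2 had 13.4 and 7.55 CPM (1.78-fold lower, 1.43 to 2.21), and the related ligand Tgfb1 had 114 and 118 CPM, with an interval that includes 1. Enpp2, which encodes autotaxin, the enzyme that makes lysophosphatidic acid, had 206 and 146 CPM (1.40-fold lower, 1.34 to 1.48), and the Wnt agonist Rspo1 22.3 and 16.8 CPM (1.33-fold lower, 1.14 to 1.55).

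**Figure D3:**
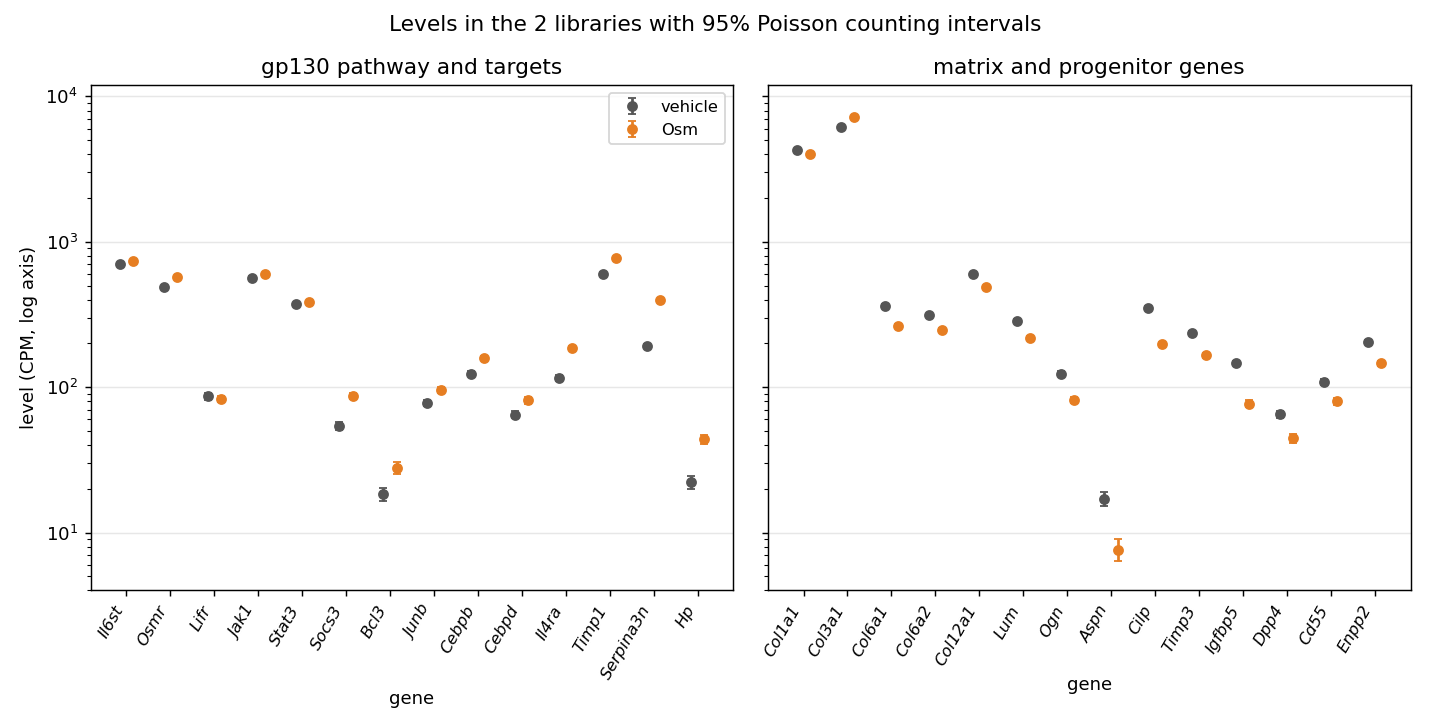
Points give the level of single genes in CPM on a log axis in the vehicle (grey) and Osm (orange) libraries, with bars for the exact 95% Poisson interval of the count; gp130 pathway genes and targets are on the left, matrix and progenitor genes on the right. Il6st, Jak1 and Stat3 lie close together in the 2 libraries, Serpina3n and Hp lie higher with Osm, and Aspn and Igfbp5 lie lower.

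The receptor of Osm itself was little different. Osmr had 487 and 569 CPM (1.17-fold higher, 1.13 to 1.2), Il6st 704 and 742 CPM (1.05-fold, 1.03 to 1.08) and Lifr, which pairs with gp130 for leukaemia inhibitory factor, 86.4 and 83.1 CPM with an interval that includes 1. None of the 5 gp130 family receptors at 10 CPM was called in either direction. Of 28 other cytokine receptors 4 were higher and 1 lower, beside 3.26% and 3.52% of all genes, with a median of 0.06. Il4ra, the interleukin 4 receptor alpha chain (chromosome 7, 125151292 to 125178646), had 116 and 186 CPM and was 1.61-fold higher (1.52 to 1.70). Il13ra1, which joins with Il4ra to form the receptor for interleukins 4 and 13 on non-blood cells, had 71.2 and 98.7 CPM (1.38-fold higher, 1.29 to 1.49). Csf2rb, the common beta chain of the receptors for interleukins 3 and 5 and GM-CSF, had 15 and 25.4 CPM (1.69-fold, 1.45 to 1.98). It shares 18.9% of its sequence windows with another gene and its near-copy Csf2rb2 20%, so the split of reads between them is uncertain, and Csf2rb2 was also higher (1.37-fold, 1.2 to 1.57). Ackr3, a scavenger receptor of Cxcl12, had 45.7 and 57.9 CPM (1.27-fold, 1.16 to 1.39).

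Cell-surface proteoglycans, which hold growth factors at the membrane, were higher in 3 cases. Sdc1 (syndecan 1; chromosome 12, 8821323 to 8843715) had 248 and 361 CPM (1.46-fold, 1.40 to 1.52), Gpc1 (glypican 1) 252 and 329 CPM (1.31-fold, 1.26 to 1.36) and Sdc4 100 and 124 CPM (1.23-fold, 1.16 to 1.31). Sdc2, at 485 and 457 CPM, was 1.06-fold lower (1.03 to 1.09). Within the list of 22 integrins and syndecans 2 were lower: Itga1, a collagen-binding integrin, and Itgbl1, a secreted integrin-like protein. Itga1 had 18.5 and 13.5 CPM (1.37-fold lower, 1.16 to 1.63) and is overlapped by Pelo at 5.27 CPM, and Itgbl1 had 19 and 12.6 CPM (1.51-fold lower, 1.27 to 1.80). Pdpn, a membrane glycoprotein of stromal cells that was named after its values were seen, had 826 and 1008 CPM (1.22-fold higher, 1.19 to 1.25).

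Surface markers of adipose progenitors gave 3 calls, all of them lower with Osm. Of 20 at 10 CPM, 3 were lower and none of the 20 higher at 1.2-fold, beside 3.52% and 3.26% of all genes. In this list 2 had a ratio above 1, and the median was -0.09. Dpp4, a peptidase that marks interstitial progenitors, had 65.0 and 44.4 CPM (1.46-fold lower, 1.34 to 1.6), Cd55, a complement inhibitor, 109 and 80 CPM (1.36-fold lower, 1.27 to 1.46), and Anxa3 162 and 134 CPM (1.21-fold lower, 1.15 to 1.28). Pdgfra, the PDGF receptor that marks the lineage, had 1129 and 1122 CPM, with an interval that includes 1. Pi16, a further interstitial marker, had 17 and 15.4 CPM, also within counting error. Of 14 Wnt and Notch receptor genes 3 were lower, Jag1, Fzd4 and Lgr4: the Notch ligand Jag1 had 32.3 and 23.8 CPM (1.36-fold lower, 1.19 to 1.54) and the Wnt receptor Fzd4 105 and 81.8 CPM (1.29-fold lower, 1.2 to 1.38). The ferritin receptor Scara5 had 77.9 and 57.0 CPM (1.37-fold lower, 1.26 to 1.48).

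In the signalling genes, the response list of gp130 and Stat3 held the most higher calls of any list. Of 47 genes 41 reached 10 CPM, 30 had a ratio above 1, and the median log2 ratio was 0.12. At 1.2-fold 14 were higher and 1 lower, and at 1.5-fold 5 were higher: Serpina3n, Hp, Il4ra, Socs3 and Bcl3. The list was made with earlier results of these data known, so its direction is no separate evidence. Socs3 (chromosome 11, 117856905 to 117860873) had 54.3 and 87.1 CPM and was 1.6-fold higher (1.48 to 1.74). Bcl3, a nuclear IkappaB protein, had 18.4 and 27.8 CPM (1.51-fold, 1.31 to 1.74), and under 1.5-fold by the FPKM values. Cebpb, Cebpd and Junb, transcription factors of the acute-phase and early response, were 1.29-fold (1.22 to 1.36), 1.26-fold (1.16 to 1.36) and 1.24-fold higher (1.16 to 1.33), and each overlaps another expressed gene, Peds1, Spidr and Prdx2. The gene lower in this list was Ccnd1, the cyclin of entry into the cell cycle, at 17.5 and 11.5 CPM (1.52-fold lower, 1.27 to 1.82). LTO1 overlaps Ccnd1 at 23.8 CPM with vehicle. Icam1 and Pim1 stayed under 1.2-fold at 1.18-fold and 1.17-fold higher, Myc had 63.3 CPM in both libraries, and Irf1 was 1.15-fold lower (1.04 to 1.27).

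Of the signal transducers 1 reached 1.2-fold. Stat3 had 373 and 383 CPM (1.03-fold, 0.99 to 1.06) and Jak1 567 and 597 CPM (1.05-fold, 1.02 to 1.08). Of 17 Jak-Stat genes the adaptor Gab1 alone was called, 1.21-fold lower (1.04 to 1.41). Socs3 was the one called of 12 feedback genes of the SOCS list, and Socs2 had 31.3 and 31.7 CPM. Other regulators outside the response list were also higher. Nfkbiz, a nuclear IkappaB protein, had 30.2 and 39.6 CPM (1.31-fold, 1.17 to 1.47), Nfil3, a bZIP repressor, 17.6 and 23.3 CPM (1.32-fold, 1.14 to 1.54), and Sbno2, a transcriptional regulator named after its values were seen, 111 and 151 CPM (1.37-fold, 1.29 to 1.45).

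Motifs of the Stat type were looked up in the promoters. The 4 windows printed are a choice among the genes higher with Osm whose windows hold the letters. No rule picked them: Pde11a, Mrps25 and Sbno2 also hold the letters and had higher ratios than Cxcl14 and Pros1. The motif was TTCNNNGAA, which reads the same on both strands. RefSeq promoter windows (250 bases before to 50 after each start) were at hand for 225 of the 292 higher genes, and 31 of them held it (13.8%), beside 21 of 242 lower genes (8.68%), 7.77% of genes not called and 9.55% of all genes with a window (8.30% of windows, as a gene can have several). Of the 31 response-list genes with a window 8 held it (25.8%): Socs3, Bcl6, Fgl2, Icam1, Steap4, Irf1, Tnfaip6 and Zfp36, of which Socs3 and Fgl2 were called. The 250 bases before the start follow, 5′ to 3′ on the gene's strand, in build GRCm38.p6, with the match in capitals: Socs3 (chr11:117969367-117969616, minus strand, match beginning 154 bases before RefSeq's start), Fgl2 (chr5:21372423-21372672, plus strand, 36 bases), Cxcl14 (chr13:56296552-56296801, minus strand, 191 bases) and Pros1 (chr16:62854057-62854306, plus strand, 92 bases). GENCODE places the starts of Socs3 transcripts at other positions, on both sides of RefSeq's. The 3 spacer letters differ between these genes. A match is a description of letters and not evidence of binding.
Socs3: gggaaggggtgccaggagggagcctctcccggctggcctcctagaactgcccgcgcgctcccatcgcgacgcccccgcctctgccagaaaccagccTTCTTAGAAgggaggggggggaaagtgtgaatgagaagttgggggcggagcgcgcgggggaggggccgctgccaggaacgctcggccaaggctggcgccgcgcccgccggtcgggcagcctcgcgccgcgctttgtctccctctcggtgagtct
Fgl2: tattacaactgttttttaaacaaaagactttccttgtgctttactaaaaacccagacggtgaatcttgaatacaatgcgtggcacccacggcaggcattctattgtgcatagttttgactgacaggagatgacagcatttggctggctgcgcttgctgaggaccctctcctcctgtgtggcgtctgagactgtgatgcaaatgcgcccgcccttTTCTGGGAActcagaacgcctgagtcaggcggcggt
Cxcl14: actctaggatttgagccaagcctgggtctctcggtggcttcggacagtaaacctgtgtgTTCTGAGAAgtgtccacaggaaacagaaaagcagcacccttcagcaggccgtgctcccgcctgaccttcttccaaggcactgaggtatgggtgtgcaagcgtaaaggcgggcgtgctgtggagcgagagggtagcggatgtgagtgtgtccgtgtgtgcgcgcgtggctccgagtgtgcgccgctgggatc
Pros1: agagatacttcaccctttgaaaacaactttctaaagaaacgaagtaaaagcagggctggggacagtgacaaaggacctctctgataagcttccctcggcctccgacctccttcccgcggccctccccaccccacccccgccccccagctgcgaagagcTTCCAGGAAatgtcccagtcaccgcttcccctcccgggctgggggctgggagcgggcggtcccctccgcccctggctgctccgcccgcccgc

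Transcription factors and feedback genes of other pathways differed in few cases. Of 25 AP-1 and immediate early genes 2 were higher (Klf9 and Junb) and 2 lower. Klf9 had 143 and 179 CPM (1.26-fold, 1.19 to 1.32), Nr4a1, an orphan nuclear receptor, 14 and 9.80 CPM (1.43-fold lower, 1.17 to 1.75), and Klf2 17.4 and 12.7 CPM (1.37-fold lower, 1.15 to 1.63). Pparg, the master regulator of adipogenesis, had 25.5 and 20.2 CPM (1.26-fold lower, 1.09 to 1.45), while its partner Cebpa had 65.3 and 76.2 CPM (1.17-fold higher, 1.08 to 1.26). Of 28 interferon-stimulated genes none was higher at 1.2-fold and 2 were lower, Ifit2 and Ifit3, the second of which shares 51.2% of its windows. Of 21 Smad, BMP and Id genes 1 was lower, Id4, and of 20 YAP/TAZ genes 2 were lower, Fjx1 and Nuak2, with medians of -0.01 and -0.07. Of 17 MAP kinase feedback genes Spred3 was higher (1.3-fold, 1.06 to 1.6) and Spry1 lower (1.25-fold, 1.15 to 1.37).

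**Figure D4:**
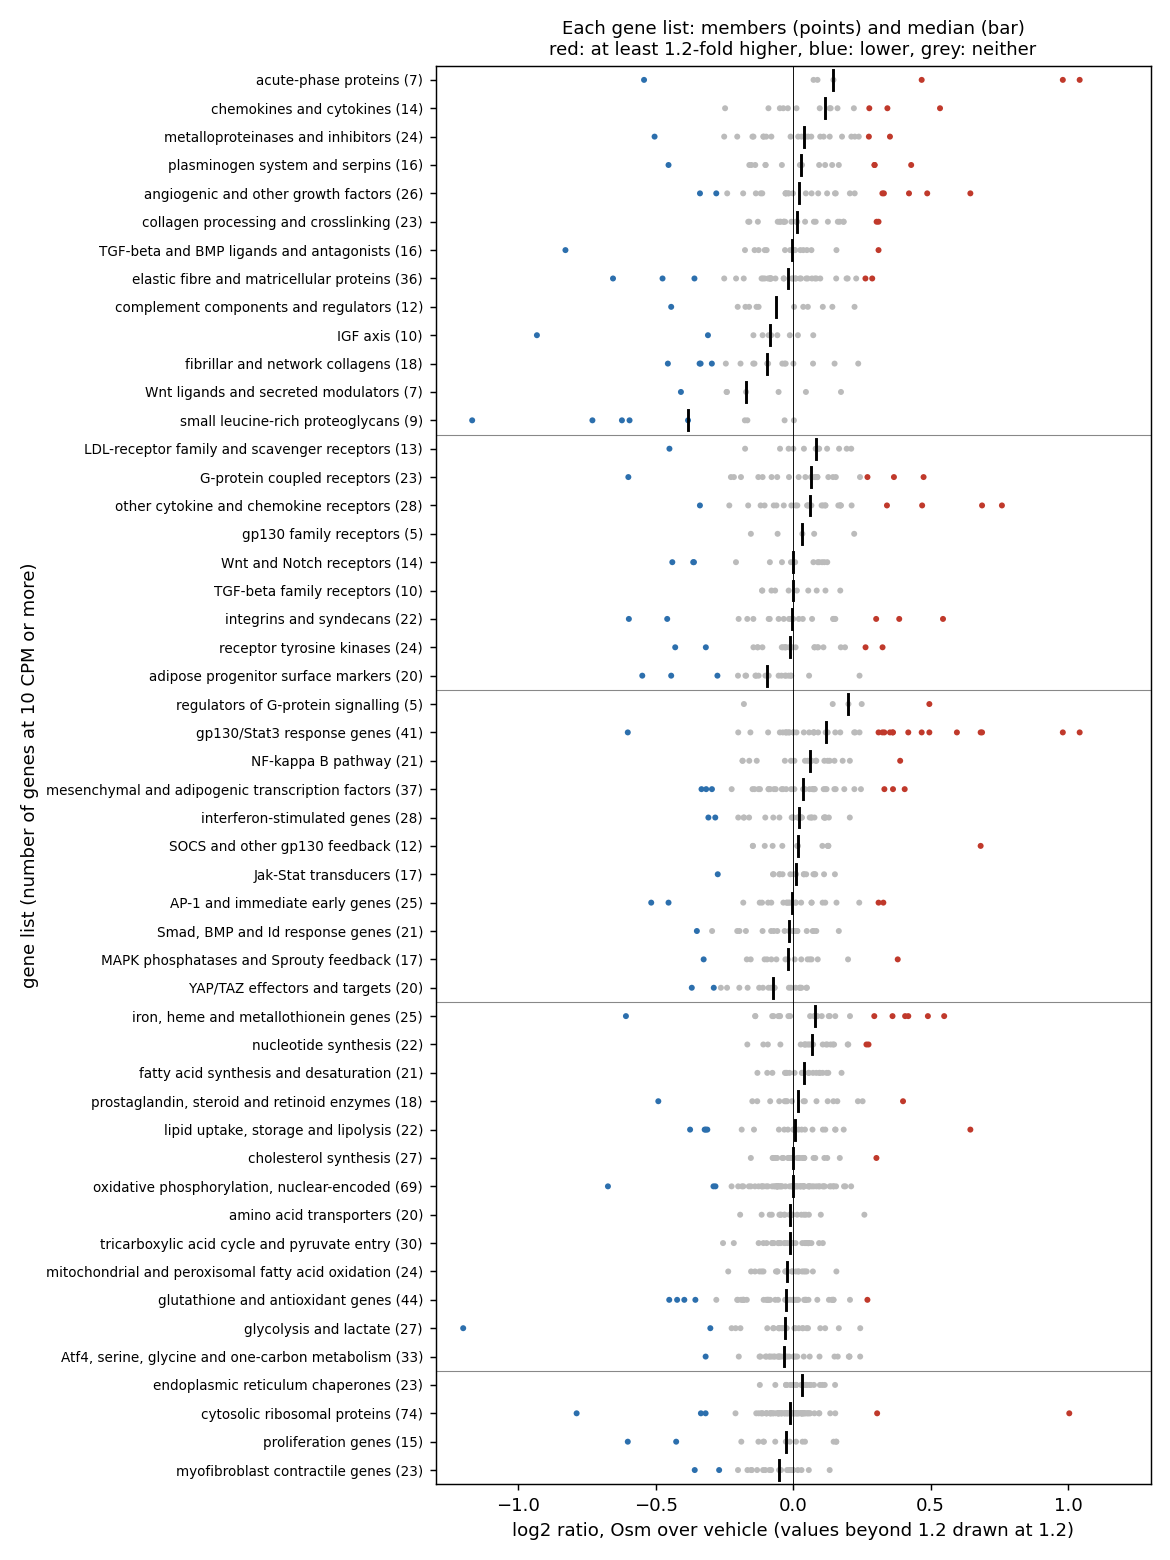
Each row is a gene list of at least 5 genes, with the number of its genes at 10 CPM in brackets; points are log2 ratios of Osm over vehicle for single genes (red at least 1.2-fold higher, blue at least 1.2-fold lower, grey neither) and the bar marks the list's median. Most bars sit near 0, the proteoglycan list sits lowest at -0.38, and the gp130/Stat3 response list carries the most red points. In the proteoglycan list Aspn, Fmod and Ecm2 reached 10 CPM only with vehicle and so had to be lower.

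Metal handling supplied 6 of the 12 metabolic genes that were higher. Of 25 iron, heme and metallothionein genes 6 were higher and 1 lower, beside 3.26% and 3.52% of all genes. Their median was 0.08. The metallothioneins Mt1 and Mt2, small proteins that bind zinc and copper, had 264 and 340 CPM (1.28-fold, 1.24 to 1.33) and 202 and 270 CPM (1.34-fold, 1.28 to 1.40). Slc39a14, an importer of zinc and iron, had 128 and 180 CPM (1.40-fold, 1.33 to 1.48). The Steap family genes Steap1 and Steap2 had 15.5 and 22.8 CPM (1.46-fold, 1.25 to 1.71) and 102 and 136 CPM (1.33-fold, 1.25 to 1.41). The gene lower in this list was Slc40a1, which encodes the iron exporter ferroportin, at 12.7 and 8.30 CPM (1.52-fold lower, 1.23 to 1.89). The storage protein gene Fth1 had 2567 and 2759 CPM (1.07-fold higher, 1.06 to 1.09).

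Pathways of energy and lipid synthesis gave few calls. Of 30 genes of the tricarboxylic acid cycle, 24 of fatty acid oxidation, 21 of fatty acid synthesis and 20 amino acid transporters none was called in either direction, and the medians lay between -0.02 and 0.04. Of 69 nuclear-encoded oxidative phosphorylation genes 3 were lower, and of 27 cholesterol synthesis genes Fdps was higher (1.23-fold, 1.07 to 1.43). Scd1, a fatty acid desaturase, had 5756 and 6263 CPM (1.09-fold higher, 1.08 to 1.1) and Lpl, lipoprotein lipase, 1523 and 1503 CPM. In lipid storage, 4 of 22 genes were lower (Lipe, Plin4, Pltp and G0s2) and 1 was higher, Angptl4 (1.56-fold, given above). The hormone-sensitive lipase gene Lipe, which reached 10 CPM only with vehicle, had 11.1 and 8.59 CPM (1.3-fold lower, 1.05 to 1.61). The lipase inhibitor G0s2 had 31.4 and 25.3 CPM (1.24-fold lower, 1.09 to 1.41). Plin4 and Pltp each overlap an expressed gene and are uncertain. Retinaldehyde dehydrogenases, which make retinoic acid, were lower: Aldh1a1 had 44.3 and 32.4 CPM (1.37-fold, 1.23 to 1.52) and Aldh1a3 164 and 123 CPM (1.34-fold, 1.27 to 1.42). Sod2, the mitochondrial superoxide dismutase, had 65.2 and 78.7 CPM (1.21-fold higher, 1.12 to 1.3), and under 1.2-fold by the FPKM values.

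Enzymes outside the lists were named by their size of difference or after their values were seen. Chst2, a sulfotransferase acting on N-acetylglucosamine, was taken by size, with 17.8 and 32.4 CPM (1.82-fold higher, 1.59 to 2.09). Named afterwards were Chst11, a chondroitin sulfotransferase, at 77.5 and 105 CPM (1.36-fold higher, 1.27 to 1.46), Csgalnact1, which starts and extends chondroitin chains, at 150 and 202 CPM (1.35-fold higher, 1.28 to 1.42), and Sulf1, which removes sulfate from heparan sulfate, at 536 and 678 CPM (1.26-fold higher, 1.23 to 1.3). Gda, which turns guanine into xanthine, had 385 and 519 CPM (1.35-fold higher, 1.31 to 1.39), and Xdh, which oxidises xanthine to uric acid, 615 and 775 CPM (1.26-fold higher, 1.23 to 1.29). Isyna1, the inositol synthase, had 207 and 280 CPM (1.35-fold higher, 1.3 to 1.41). Gda, Xdh and Isyna1 were also named afterwards, and such a choice says nothing about other enzymes of the same pathways.

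The 6 genes past 2-fold were mixed in how firmly they can be read. Serpina3n and Aspn are given above, and Csmd1, a membrane protein with complement-control domains, was at 6.25 and 12.6 CPM (2.01-fold higher, 1.6 to 2.54). Csmd1 reached 10 CPM only in the Osm library, and Aspn and Gapdh only in the vehicle library. The level filter therefore fixed the direction of these genes. With DESeq2 size factors or the FPKM values Csmd1 and Rps27a came under 2-fold. Gapdh (8.62-fold lower), Sumo2 (3.62-fold lower) and Rps27a (2.01-fold higher) share 26.9%, 30.7% and 40.9% of their windows with other genes, and their values are uncertain. Of the 27 glycolysis genes Slc2a3, a glucose transporter, was the other called one (1.23-fold lower, 1.05 to 1.45), and the list's median was -0.03. Likewise 74 cytosolic ribosomal protein genes had a median of -0.01, and all 5 called ones, Rps27a, Rpl27, Rpl17, Rpl21 and Rpl7a, share at least 20% of their windows.

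Values of the TGF-beta1 library stand beside these for the leading genes, and since both ligands are set against the same vehicle library the ratios are not independent. With TGF-beta1, 19.5% of the 8968 genes were at least 1.2-fold higher than vehicle and 17.1% lower. Serpina3n had 63.1 CPM with TGF-beta1, Hp 2.98 CPM, Abi3bp 38.6 CPM and Sdc1 212 CPM, each below its vehicle level. Il4ra had 197 CPM and Timp1 1497 CPM, each above its vehicle level, and Socs3 had 54.5 CPM, close to vehicle. Of the genes lower with Osm, Igfbp5 had 8.30 CPM, Ogn 58.6 CPM and Dpp4 35 CPM with TGF-beta1, each also below vehicle, while Cilp had 1198 CPM and Timp3 702 CPM, each above it.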

How the data were processed

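The authors deposited whole-number read counts per Ensembl gene. They also deposited FPKM values, which divide the counts by gene length. Per the submitters' processing notes, CASAVA, HISAT2, HISAT and TopHat2 were used, with the genome build mm39. Nothing used here names the read counter, annotation release, filters or strand setting, and per the labels' protocols messenger RNA was selected with poly-T beads. Reads of overlapping genes on opposite strands therefore cannot be told apart. The deposited counts were used without change, and the deposited FPKM values served as an alternative.

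TMM factors from edgeR 4.0.16 (R 4.3.3), computed over the 3 libraries, turned counts into CPM. Ratios used a prior count of 0.5, and their exact 95% intervals came from the conditional binomial distribution (Clopper-Pearson). Intervals cover counting error only, and they may be too narrow for it, since reads without molecular identifiers are not independent molecules. There is 1 library per condition, hence no fitted model and no p-value. DESeq2 1.42.0 gave alternative size factors. The rest was done with pandas 2.3.3, numpy 2.4.6 and scipy 1.17.1 under Python 3.11.15, and figures with matplotlib 3.10.9. The calling step was tested on simulated counts that held counting error only. That test could not cover differences between cultures.

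Genes with at least 20% of their 50-base transcript windows (1 in 10 sampled) in another gene's transcript (GENCODE, earlier build, sequences only), or overlapped by a gene at 10% of their level or more, were treated as uncertain. The 51 lists hold 1434 symbols, of which 1429 were found. The named genes were the 25 highest and 25 lowest ratios whose interval excludes 1, and per list the 2 highest and 2 lowest called and the 2 most abundant genes. To these came a set always named: Socs3, Osmr, Il6st, Stat3, Jak1, Lifr, Timp1, Serpina3n, Junb, Cebpd, Bcl3, Il6, Il33, Ccl2, Igfbp5, Col1a1, Col1a2, Col3a1, Acta2, Ccn2, Dpp4 and Pdgfra. Some of the genes this takes are not reported here, and others are given as further members of a list or as named after their values were seen. The genes, lists and rules were chosen with earlier results of these data known. Promoter sequences are from RefSeq (GRCm38.p6).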

Additional observations from a re-analysis of the deposited data

How the results depend on the processing

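The main counts were 292 higher and 316 lower genes at 1.2-fold, 18 and 27 at 1.5-fold and 3 and 3 at 2-fold, and 51 of 72 counts under 12 alternatives stayed within 1.5 times of these. With a limit of 5 CPM the counts were 50 and 53 at 1.5-fold and 6 and 7 at 2-fold. With 20 CPM they were 163 and 183 at 1.2-fold and 10 lower at 1.5-fold. With no level limit they were 523 and 591, 187 and 221, and 83 and 112 at the 3 folds. Without genes that overlap another gene, which leaves 3891 genes, they were 140 and 147 at 1.2-fold, 16 lower at 1.5-fold, and 1 higher and 1 lower at 2-fold. DESeq2 size factors and the FPKM values each left 1 gene higher at 2-fold, where Csmd1 and Rps27a lie close to the limit. Leaving out shared or overlapped genes, an alternative chosen after seeing the data, left 1 gene lower at 2-fold. Requiring a mean of 10 CPM over both libraries gave 261 and 286 at 1.2-fold, and a 99% interval 215 and 245. Scaling moved the log2 ratios of the 221 named genes by at most 0.00611, and none of those called changed direction. Calls near a limit were lost. With DESeq2 size factors Ccn5, Ephb4 and Ppat came under 1.2-fold and Csmd1 and Rps27a under 2-fold, and Bgn and Spred1, neither of them called, changed sign. With FPKM values the same happened to these genes, Sod2 also came under 1.2-fold, and Bcl3, Nptx1 and Slc40a1 came under 1.5-fold. Count totals alone put Ccn5 and Ephb4 under 1.2-fold, and a prior count of 2 put Ccn5 under 1.2-fold and Csmd1 under 2-fold. No paired analysis was possible because there was 1 library per condition, and no replicate could be left out. The depth limits what can be seen: a gene at 10 CPM needs a ratio of 1.23 to leave counting error, and the difference between cultures was not measured, so none of the folds shows what Osm would do in another culture.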

Other observations

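Genes of the gp130 pathway below 10 CPM rest on few reads. Saa3, an acute-phase apolipoprotein gene, had 44 counts with vehicle and 134 with Osm (3.20-fold higher, 2.28 to 4.65). Among acute-phase genes 15 of 22 did not reach 10 CPM, and Orm1, Orm2, Fgb and Fgg had no read in either library, which allows up to 0.163 CPM with vehicle and 0.173 CPM with Osm. Lcn2, a siderophore-binding protein, had 20 counts with vehicle and 34 with Osm (1.78-fold higher, 1.01 to 3.30), and the protease inhibitor gene Serpina3g had 5 and 17 counts (3.36-fold higher, 1.28 to 12.5). Of the family's ligands, Il6 had 125 and 106 counts and Lif 144 and 107 counts, with intervals that include 1, and Osm itself had no count in either library. Tslp, an epithelial-type cytokine, had 46 and 23 counts (1.87-fold lower, 1.12 to 3.26). Tnfsf11, which encodes the osteoclast factor RANKL, had 0 counts with vehicle and 6 with Osm, and the chemokine gene Ccl19 had 7 and 0 counts, too few for a fold. Fos, an AP-1 subunit, had 122 and 129 counts, an interval that includes 1.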
